A study of Mus musculus with 21 samples.

Results

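The R-spondin and Wnt system was followed through 10 genes in sorted mouse lung fibroblasts: the R-spondins Rspo1, Rspo2 and Rspo3, the Wnt ligands Wnt4, Wnt5a and Wnt11, and the Wnt target genes Axin2, Lef1, Nkd1 and Nkd2. They were chosen by symbol, as 10 of the 23204 symbols counted in every library, and 8 of the 10 passed the filter on low counts. Rspo2 and Lef1 did not pass and are described by their counts. Wnt proteins are secreted ligands that bind Frizzled receptors together with Lrp5 or Lrp6. In the canonical branch this stabilises beta-catenin, which enters the nucleus and, with Tcf and Lef factors, switches on target genes, several of which feed back to restrain the pathway. R-spondins are secreted amplifiers that bind Lgr receptors and stop the ubiquitin ligases Znrf3 and Rnf43 from removing Frizzled from the cell surface. In the mouse lung, Axin2 is a widely used readout of fibroblasts that respond to Wnt.

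The fibroblasts came from lungs of female C57BL/6 mice carrying the Col1a2-GFP transgene, in which the promoter of the collagen gene Col1a2 drives green fluorescent protein. Mice received silica (SiO2) once at 400 mg/kg, which the series calls the progressive model, or bleomycin (BLM) once at 2 mg/kg, which it calls the reversible model, both by oropharyngeal aspiration, or were left untreated. Lungs were taken at day 7, 14 or 63 of each model, which gives 6 treated groups and 1 untreated group with 3 libraries each, 21 in all. All groups carried the transgene and passed the same sort for live GFP-positive cells that lacked the surface markers of blood (CD45, Ter119), endothelial (CD31), epithelial (EpCAM) and perivascular (CD146) lineages, with 10000 cells per library. The sort therefore covers only cells in which the Col1a2 promoter was active.

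In mm10 (GENCODE vM21) the genes are spread over 9 chromosomes, with Rspo1 at chr4:124986430-125009099 and Wnt4 at chr4:137277489-137299726, both on the plus strand, as the only pair that shares one. Rspo3 lies at chr10:29452416-29535867 on the minus strand, Wnt5a at chr14:28504750-28527448, Axin2 at chr11:108920349-108950783, Nkd1 at chr8:88521354-88594884 and Lef1 at chr3:131110471-131224356 on the plus strand, and Nkd2 at chr13:73818534-73847631 on the minus strand. Annotated genes on the opposite strand overlap 7 of the 10. As the strand setting of the counting was not given, reads of such partners cannot be told apart from those of Rspo1 (Gm12930), Rspo3 (Gm48159), Wnt5a (Gm2670), Wnt11 (Gm8398), Axin2 (Gm11670), Lef1 (Gm43352) and Nkd2 (Gm8062). Genes on the same strand, which no strand setting would separate, overlap Rspo3 (Gm20276), Lef1 (Gm42449) and Nkd1 (Gm45496).

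Promoter windows are shown for 3 target genes, because Axin2 and Nkd1 fell in treated groups, Nkd1 in fewer of them, while Lef1 had its few counts there. RefSeq (GRCm38.p6) windows from 250 bases before to 50 bases after a start site were held for 7 of the 10 genes, 11 windows in all. Each was searched on both strands for CTTTGA and CTTTGT, the core letters read by Tcf and Lef factors, whose reverse complements are TCAAAG and ACAAAG. The windows lie at chr11:108920099-108920398 (Axin2), chr8:88527383-88527682 (Nkd1) and chr3:131156044-131156343 (Lef1, the last of its 4 windows), all on the plus strand, and capitals mark a match.
Axin2: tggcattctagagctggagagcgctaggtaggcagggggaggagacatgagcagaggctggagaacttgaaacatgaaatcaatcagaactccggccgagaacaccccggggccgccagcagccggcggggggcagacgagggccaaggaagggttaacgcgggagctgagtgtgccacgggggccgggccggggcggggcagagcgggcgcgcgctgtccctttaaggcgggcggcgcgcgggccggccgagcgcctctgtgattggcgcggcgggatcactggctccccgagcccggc
Nkd1: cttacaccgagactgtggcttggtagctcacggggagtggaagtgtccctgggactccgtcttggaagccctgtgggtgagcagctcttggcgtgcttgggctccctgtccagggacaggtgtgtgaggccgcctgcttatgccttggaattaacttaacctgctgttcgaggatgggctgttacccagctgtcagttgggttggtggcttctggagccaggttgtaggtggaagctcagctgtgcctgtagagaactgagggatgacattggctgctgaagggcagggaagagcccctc
Lef1: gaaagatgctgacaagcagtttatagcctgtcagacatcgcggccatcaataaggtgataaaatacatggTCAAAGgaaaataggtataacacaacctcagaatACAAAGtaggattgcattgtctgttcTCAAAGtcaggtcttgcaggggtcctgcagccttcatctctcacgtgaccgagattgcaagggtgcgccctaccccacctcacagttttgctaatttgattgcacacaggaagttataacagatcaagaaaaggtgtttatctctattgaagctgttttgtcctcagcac
The Lef1 window held 3 matches that did not overlap each other, at positions -180, -146 and -120 relative to the start site of that window. This Lef1 window and the Nkd1 window lie inside the genes, downstream of the gene starts at chr3:131110471 and chr8:88521354. Their start sites are thus internal ones. Of all 32841 windows of this length, 6.68% held at least 2 matches and 31.2% held at least 1. The windows of Axin2, Nkd1, Nkd2, Rspo1 and Wnt4 and the other 3 windows of Lef1 held none, which says only that these letters are not in those windows. The first of the 2 windows of Wnt11 held 1 match, at position -50.

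The libraries held between 2080636 counts (replicate 3 of the untreated group) and 4477283 counts (replicate 3 of SiO2 day 63), and the median library held 3774431. The collagen gene Col1a2, whose promoter drives the sort, stood at 1469 to 6669 CPM in all 21 libraries, and at 1469 to 1640 CPM in the untreated ones. Levels are TMM-scaled CPM, counts set against library size, and means are given ± SD of 3 libraries. Log2 fold changes are given ± SE from edgeR's quasi-likelihood model of all 7 groups, and "rose", "fell", "higher" and "lower" mark an adjusted p under 0.05 over the 11669 genes tested. SiO2 day 14 replicate 3 stood apart from the other replicates of its group on the first principal component of log2(CPM + 1) (-13.25 against 2.23 and 3.36), and held the lowest Rspo3 and the highest Rspo1, Nkd1 and mesothelial marker values of the 3. BLM replicate 1 also stood apart on it at day 7 (7.83 against 24.1 and 18.7) and at day 14 (37.5 against 25.6 and 26.5). Calls that end without a library are given beside each result. The labels do not say whether libraries of a group came from separate mice, so the p-values measure the spread between these libraries, which may be technical. In bulk libraries, fewer cells of a type and less RNA per cell cannot be told apart. The 6 comparisons with untreated share the same 3 untreated libraries. No group was aspirated without an agent, and the untreated group was not matched to each day. In these comparisons agent, aspiration and elapsed time therefore cannot be told apart.

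Rspo3 rose and Axin2 fell in all 6 treated groups, so that an amplifier of Wnt signalling and its customary readout moved in opposite directions. Wnt5a rose in 5 of the 6 groups and Nkd1 fell in 4. Rspo1 fell in 3, Wnt4 fell in 1, Nkd2 rose in 1, and Wnt11 passed in none. Against untreated, 2 of the 8 tested genes rose and 4 fell at SiO2 day 7 (23.4% and 20.6% of all tested genes), 2 rose and 1 fell at SiO2 day 14 (13.6% and 10.5%), and 3 rose and 3 fell at SiO2 day 63 (15.3% and 12.5%). In the bleomycin model 2 rose and 2 fell at day 7 (16.7% and 14.9%), 2 rose and 3 fell at day 14 (20.7% and 18.5%), and 1 rose and 1 fell at day 63 (6.02% and 5.48%). The share of the 8 that passed was above the share of all genes in each of these. It lay near that share for the rises at SiO2 day 7 and BLM day 14 and the fall at SiO2 day 14. With 8 genes picked for their roles this is a description of them only. With upper quartile scaling the higher share of all called genes at SiO2 day 14 was 44.8%, against 56.4% with TMM.

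**Figure D1:**
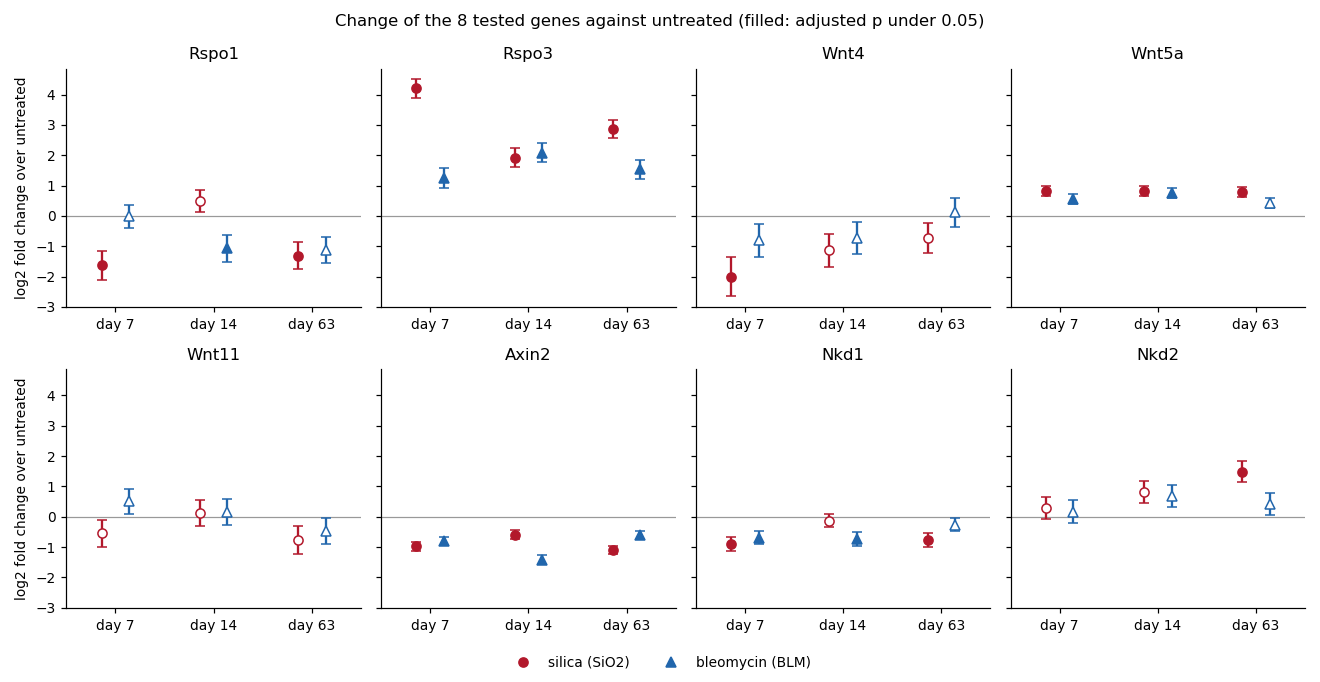
Log2 fold change over untreated (vertical axis) of the 8 tested genes at day 7, 14 and 63 in silica (red circles) and bleomycin (blue triangles), with bars of ± SE and filled symbols for an adjusted p under 0.05. Rspo3 lies above 0 and Axin2 below 0 in all 6 groups, and Rspo3 at SiO2 day 7 (4.20) lies farthest from 0.

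Rspo3, the R-spondin with the widest change, was highest 7 days after silica. At day 7 it stood at 85.0, 128 and 161 CPM in the SiO2 libraries and at 10.7, 19.3 and 17.7 CPM in the BLM libraries, against 6.48, 6.28 and 7.96 CPM in the untreated libraries. Every SiO2 library of day 7 lay above every library of all other groups, and the BLM libraries lay above the untreated ones without overlap. The rise over untreated was 4.20 ± 0.30 on the log2 scale in silica (adjusted p = 1.09e-13) and 1.24 ± 0.33 in bleomycin (adjusted p = 0.00338), and the day 7 difference between the models, SiO2 minus BLM, was 2.96 ± 0.24 (adjusted p = 1.36e-10).

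By day 14 the libraries of the models overlapped. SiO2 libraries held 34.5, 28.0 and 15.5 CPM of Rspo3 and BLM libraries 33.9, 27.2 and 25.4 CPM. Between the models the log2 difference was -0.16 ± 0.24 (adjusted p = 0.728), while both stayed above untreated (1.92 ± 0.32 in silica, adjusted p = 1.22e-05; 2.08 ± 0.32 in bleomycin, adjusted p = 1.52e-06). Within silica Rspo3 fell by 2.28 ± 0.22 on the log2 scale at day 14 against day 7 (adjusted p = 3.46e-09). Within bleomycin it rose by 0.84 ± 0.26 over the same interval (adjusted p = 0.0313), a call that was lost without BLM day 7 replicate 1 (adjusted p = 0.204), BLM day 14 replicate 1 (0.130) or BLM day 14 replicate 2 (0.0565).

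The models parted again at the last time. At day 63 Rspo3 stood at 43.1, 55.4 and 50.1 CPM in SiO2 libraries and at 15.7, 19.8 and 23.3 CPM in BLM libraries. All 3 SiO2 libraries lay above all 3 BLM libraries, and the log2 difference was 1.33 ± 0.23 (adjusted p = 7.92e-05). Against untreated the rise was 2.87 ± 0.30 in silica (adjusted p = 2.21e-09) and 1.54 ± 0.32 in bleomycin (adjusted p = 0.000847). Within silica day 63 was higher than day 14 by 0.94 ± 0.22 (adjusted p = 0.0133), which was lost without SiO2 day 14 replicate 3 (adjusted p = 0.123) or SiO2 day 63 replicate 2 (0.0785). Within bleomycin the change from day 14 was -0.54 ± 0.25 (adjusted p = 0.0902).

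Markers of pericytes and smooth muscle, cells of which those carrying CD146 were gated out in the sort, moved with Rspo3 in some groups. The summed level of these 9 genes was 381 to 508 CPM at SiO2 day 7, 125 to 176 CPM at SiO2 day 14, 169 to 186 CPM at SiO2 day 63, 154 to 297 CPM at BLM day 7, 293 to 434 CPM at BLM day 14 and 92.8 to 117 CPM at BLM day 63, against 66.0 to 70.1 CPM in untreated libraries. Of the 6 that were tested, 5 rose at SiO2 day 7, among them the intermediate filament gene Des (70.7 CPM against 15.9 CPM in untreated) and the receptor gene Notch3 (10.6 CPM against 1.13 CPM). Cnn1, Rgs5 and Mcam, 3 of the 9, were at 0 in all untreated libraries. BLM day 14 had a higher sum than SiO2 day 63 and a lower Rspo3 level. The part of these cells in the Rspo3 result was not tested.

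Rspo1, another secreted R-spondin, went the other way at the start of the silica model. At day 7 the SiO2 libraries held 1.5, 1.86 and 1.01 CPM and the BLM libraries 4.64, 5.02 and 3.80 CPM, against 2.85, 5.53 and 5.62 CPM in untreated. The SiO2 libraries lay below both other groups, while BLM and untreated overlapped. Rspo1 fell by 1.63 ± 0.47 on the log2 scale at SiO2 day 7 against untreated (adjusted p = 0.00360), and the difference at BLM day 7 was -0.01 ± 0.38 (adjusted p = 0.983). Silica was lower than bleomycin at day 7 by a log2 difference of -1.61 ± 0.47 (adjusted p = 0.0149), which was lost without BLM day 7 replicate 2 (adjusted p = 0.0536) or SiO2 day 7 replicate 3 (0.0838).

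At day 14 the order of the models was turned. Rspo1 stood at 6.54, 4.26 and 8.26 CPM in SiO2 libraries and at 2.83, 2.39 and 1.38 CPM in BLM libraries. Again the models did not overlap, and silica was higher by 1.55 ± 0.42 (adjusted p = 0.00646), a call lost without BLM day 14 replicate 3 (adjusted p = 0.0528) or SiO2 day 14 replicate 3 (0.0577). Within silica the rise at day 14 against day 7 was 2.11 ± 0.45 (adjusted p = 0.000293). Against untreated, SiO2 day 14 had a difference of 0.48 ± 0.36 (adjusted p = 0.358), and BLM day 14 was lower by a log2 difference of -1.07 ± 0.44 with an adjusted p of 0.0491 that moved to the other side of 0.05 in 18 of 26 other settings (0.0501 to 0.202, the highest without BLM day 14 replicate 3).

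By day 63 Rspo1 was low in both models, at 2.89, 0.799 and 1.78 CPM after silica and 2.74, 2.30 and 1.33 CPM after bleomycin. These groups overlap, and their log2 difference was -0.19 ± 0.48 (adjusted p = 0.849). Within silica Rspo1 fell at day 63 against day 14 by 1.79 ± 0.42 (adjusted p = 0.00831), which was lost without SiO2 day 14 replicate 3 (adjusted p = 0.0689) or SiO2 day 63 replicate 2 (0.0698). Against untreated it fell by 1.30 ± 0.44 at SiO2 day 63 (adjusted p = 0.0205), a call lost without untreated replicate 2 (adjusted p = 0.119), untreated replicate 3 (0.0604), SiO2 day 63 replicate 2 (0.117) or SiO2 day 63 replicate 3 (0.0588). The difference at BLM day 63 was -1.11 ± 0.43 (adjusted p = 0.0844).

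Mesothelial markers moved beside Rspo1 in silica. The sum of these 10 genes was 128 to 188 CPM at SiO2 day 7, 407 to 533 CPM at SiO2 day 14 and 227 to 259 CPM at SiO2 day 63. It was 278 to 390 CPM at BLM day 7, 393 to 448 CPM at BLM day 14 and 361 to 437 CPM at BLM day 63, against 526 to 655 CPM in untreated libraries. Of the 7 tested, 6 fell at SiO2 day 7, 6 rose at SiO2 day 14 against day 7, and 5 fell at SiO2 day 63 against day 14. Against untreated, 1 rose and 1 fell at SiO2 day 14, and likewise at BLM day 7. In the same comparison 3 fell at BLM day 14, 4 at BLM day 63 and 5 at SiO2 day 63, and 0 rose. None of the 10 was at 0 in any group. BLM day 14 had a higher sum than BLM day 7 and a lower mean Rspo1 level, 2.2 ± 0.741 CPM at day 14 against 4.49 ± 0.622 CPM at day 7, a difference that did not pass (adjusted p = 0.126). The 7 tested markers had a median log2 fold change of -0.61 over that interval, with 1 higher and 0 lower. The sum and the median thus went opposite ways there. The part of mesothelial cells in the Rspo1 result was not tested.

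**Figure D2:**
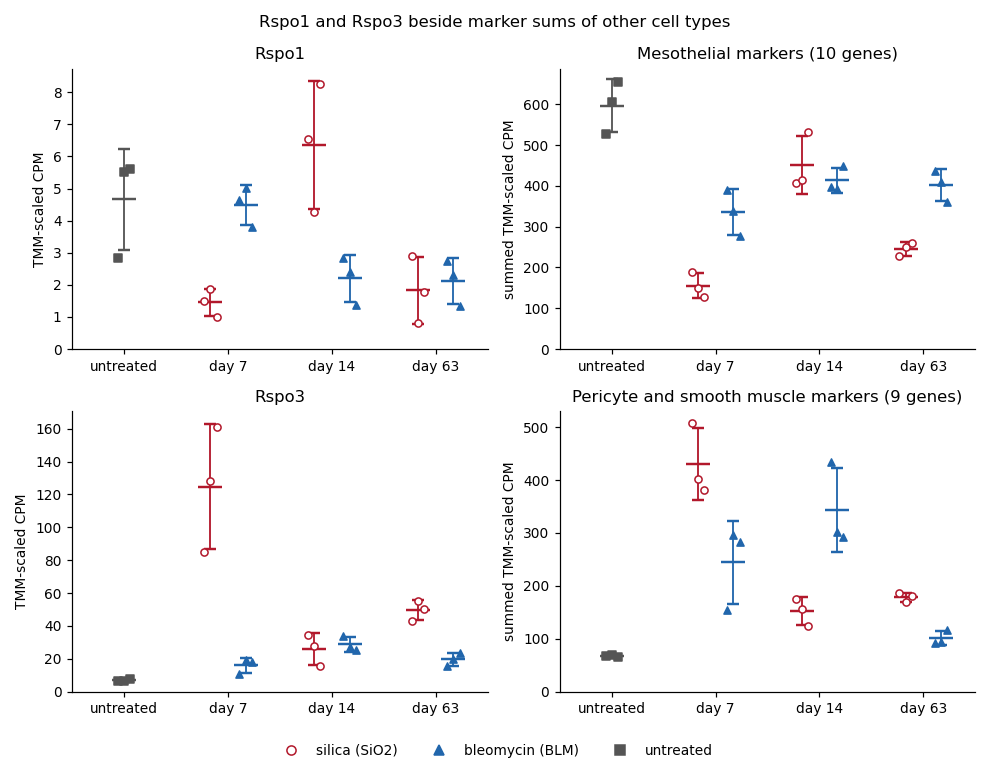
Levels of Rspo1 and Rspo3 (left, TMM-scaled CPM) beside the summed levels of 10 mesothelial and 9 pericyte and smooth muscle markers (right, same unit), with a point per library, a line at the mean and bars of ± SD (n = 3). At SiO2 day 7 the mean of Rspo1 and the mesothelial sum (128 to 188 CPM) were at their lowest, and Rspo3 and the pericyte and smooth muscle mean at their highest.

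Rspo2, a further R-spondin, was scarce and had more counts in every treated group than in untreated mice. Summed over 3 libraries it had 19, 19 and 24 counts at SiO2 day 7, 14 and 63 and 25, 18 and 19 counts at BLM day 7, 14 and 63, against 3 counts in untreated mice. The ratio of treated to untreated ran from 5.27 at BLM day 63 (95% counting interval 1.55 to 27.8) to 8 at BLM day 7 (2.44 to 41.4). The lowest treated library had 1.01 CPM, against 0.259, 0.502 and 0 CPM in the untreated libraries, so no treated group overlapped with untreated. Without the filter on low counts, Rspo2 was higher than untreated in 5 of 6 groups (adjusted p from 0.00177 at BLM day 7 to 0.0308 at SiO2 day 14) and did not pass at BLM day 63 (0.0688). None of the 3 comparisons between silica and bleomycin passed (adjusted p from 0.767 to 1). The tags carried no molecular identifiers, so such intervals cover counting error only.

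**Figure D3:**
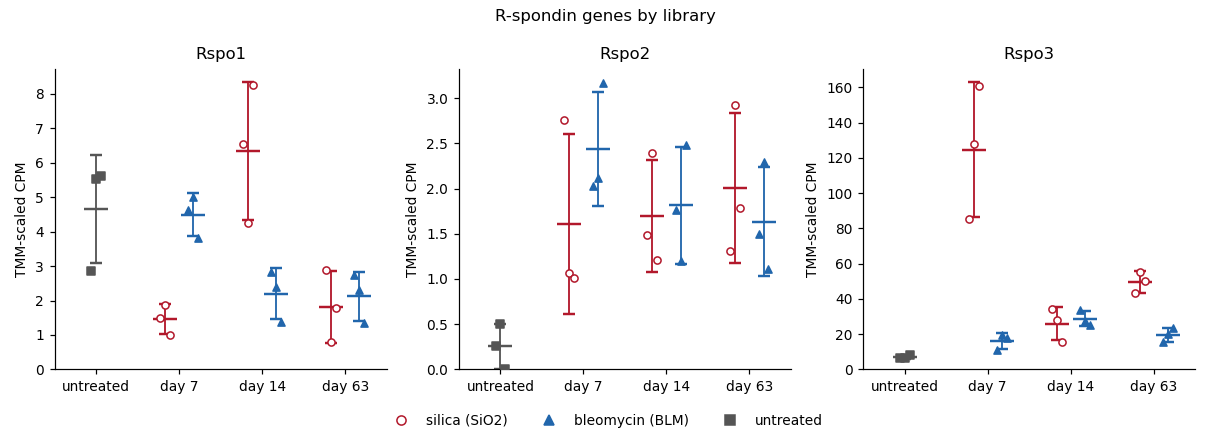
TMM-scaled CPM (vertical axis) of Rspo1, Rspo2 and Rspo3 in each library by time, with silica in red circles, bleomycin in blue triangles, untreated in grey squares, a line at the mean and bars of ± SD (n = 3). Rspo3 reached 85.0 to 161 CPM at SiO2 day 7, Rspo1 had its lowest mean there with libraries that overlap those of SiO2 day 63, and Rspo2 was above untreated in every treated group.

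Wnt5a, a ligand known mainly for beta-catenin-independent signalling through Ror receptors, was raised in most treated groups. At day 7 it stood at 89.3, 74.1 and 59.2 CPM after silica and 66.4, 63.6 and 55.8 CPM after bleomycin, against 44.6, 41.7 and 39.3 CPM in untreated. At day 14 it was 79.6, 87.4 and 58.6 CPM after silica and 54.4, 76.5 and 81.2 CPM after bleomycin. Day 63 gave 75.7, 66.8 and 74.1 CPM after silica and 48.0, 56.2 and 63.6 CPM after bleomycin. All 18 treated libraries lay above all untreated ones. The rise was 0.82 ± 0.16, 0.83 ± 0.16 and 0.78 ± 0.16 on the log2 scale at SiO2 day 7, 14 and 63 (adjusted p = 0.000124, 0.000252 and 0.000406) and 0.56 ± 0.17 and 0.76 ± 0.17 at BLM day 7 and 14 (adjusted p = 0.00942 and 0.000436). At BLM day 63 the difference of 0.41 ± 0.17 had an adjusted p of 0.108, or 0.0471 without the filter on low counts. The day 63 libraries of silica lay above those of bleomycin, with a log2 difference of 0.37 ± 0.16 that did not pass (adjusted p = 0.119).

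Wnt4 and Wnt11, a ligand of kidney and reproductive tract development and a ligand known from zebrafish for convergent extension movements, were low and passed the test in few comparisons. Wnt4 had 0.502, 0.797 and 1.52 CPM at SiO2 day 7, against 4.40, 5.02 and 1.40 CPM in untreated. The groups touched through untreated replicate 3, and Wnt4 fell by 2.01 ± 0.64 (adjusted p = 0.00596). It passed in no other of the 15 comparisons, with group means from 1.70 CPM at SiO2 day 14 to 4.14 CPM at BLM day 63 elsewhere. Without SiO2 day 14 replicate 3, Wnt4 was also lower at SiO2 day 14 against untreated (adjusted p = 0.0453, against 0.126 with it). Wnt11 had means from 1.77 ± 0.556 CPM at SiO2 day 63 to 4.31 ± 1.25 CPM at BLM day 7, against 3.05 ± 0.709 CPM in untreated, and passed in none of the 15 comparisons. Its lowest adjusted p was 0.104, for silica against bleomycin at day 7, with a log2 difference of -1.06 ± 0.42.

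**Figure D4:**
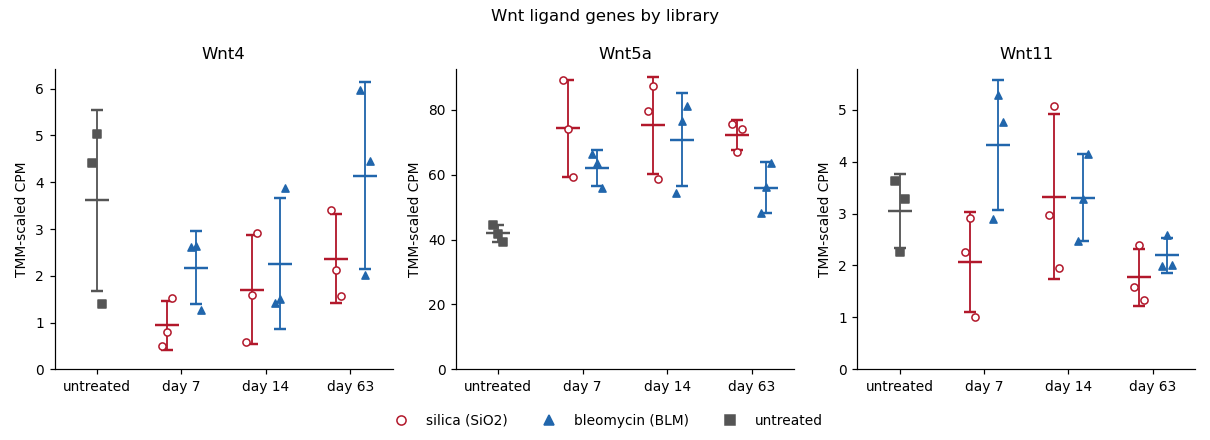
TMM-scaled CPM (vertical axis) of Wnt4, Wnt5a and Wnt11 in each library by time, with silica in red circles, bleomycin in blue triangles, untreated in grey squares, a line at the mean and bars of ± SD (n = 3). All 18 treated libraries of Wnt5a lie above the untreated ones, while Wnt11 groups overlap.

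Axin2 encodes a scaffold of the beta-catenin destruction complex and is itself switched on by Wnt, as a negative feedback. At day 7 it stood at 38.1, 34.5 and 38.0 CPM after silica and 41.8, 35.7 and 48.2 CPM after bleomycin, against 78.5, 70.6 and 67.0 CPM in untreated. Every treated library of any group lay below every untreated one. Axin2 fell by 0.97 ± 0.14 on the log2 scale at SiO2 day 7 (adjusted p = 1.45e-06) and by 0.79 ± 0.14 at BLM day 7 (adjusted p = 5.53e-05), and the models overlapped there (log2 difference -0.18 ± 0.15, adjusted p = 0.525).

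Afterwards the models diverged. At day 14 Axin2 was at 39.8, 53.8 and 50.3 CPM after silica and at 25.1, 29.9 and 26.5 CPM after bleomycin, and the groups did not overlap. Silica was higher by 0.82 ± 0.15 (adjusted p = 0.000165), although both were lower than untreated, by log2 differences of -0.59 ± 0.14 in silica (adjusted p = 0.00197) and -1.41 ± 0.15 in bleomycin (adjusted p = 5.69e-09). Within bleomycin, Axin2 fell by 0.62 ± 0.15 at day 14 against day 7 (adjusted p = 0.00768), which was lost without BLM day 7 replicate 3 (adjusted p = 0.0583). Within silica the change over that interval was 0.38 ± 0.14 (adjusted p = 0.0518), and leaving out 1 library took it under 0.05 in 6 cases, the lowest being 0.0191 without SiO2 day 14 replicate 1.

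At day 63 the order was reversed, with 39.4, 28.8 and 33.2 CPM after silica and 51.5, 49.9 and 41.8 CPM after bleomycin. The groups again did not overlap, and silica was lower by a log2 difference of -0.50 ± 0.14 (adjusted p = 0.0158). This call was lost without BLM day 63 replicate 1 (adjusted p = 0.0785) or 2 (0.0562), or SiO2 day 63 replicate 2 (0.110) or 3 (0.0560). Within bleomycin Axin2 rose by 0.81 ± 0.15 at day 63 against day 14 (adjusted p = 9.32e-05). Within silica it fell by 0.51 ± 0.14 (adjusted p = 0.0426), a call lost with DESeq2 (adjusted p = 0.0515) and without SiO2 day 14 replicate 2 (0.186) or 3 (0.137), SiO2 day 63 replicate 2 (0.217) or 3 (0.128) or BLM day 14 replicate 3 (0.0502). At day 63 Axin2 was still lower than in untreated in both models, with log2 differences of -1.10 ± 0.14 in silica (adjusted p = 4.19e-07) and -0.60 ± 0.14 in bleomycin (adjusted p = 0.00352).

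Nkd1, the Naked cuticle gene whose protein binds Dishevelled and restrains Wnt signalling as another feedback target, fell in 4 of the 6 groups in which Axin2 fell. At day 7 it stood at 12.0, 13.0 and 9.62 CPM after silica and 12.5, 10.3 and 17.4 CPM after bleomycin, against 19.2, 24.4 and 20.1 CPM in untreated. Both models lay below untreated without overlap, with falls of 0.88 ± 0.23 in silica (adjusted p = 0.00213) and 0.68 ± 0.23 in bleomycin (adjusted p = 0.0216). At day 14 only bleomycin passed, with 9.18, 13.4 and 15.8 CPM and a fall of 0.72 ± 0.23 (adjusted p = 0.0135), while silica had 16, 17.3 and 24.5 CPM and a difference of -0.13 ± 0.22 (adjusted p = 0.710). The difference between the models at day 14 was 0.58 ± 0.23 and did not pass (adjusted p = 0.0811), although the libraries did not overlap.

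At day 63 Nkd1 was at 9.46, 12.8 and 15.4 CPM after silica and 20.2, 14.1 and 19.1 CPM after bleomycin. Silica fell by 0.76 ± 0.23 against untreated (adjusted p = 0.0109), bleomycin differed by -0.25 ± 0.22 (adjusted p = 0.521), and the models overlapped (log2 difference -0.50 ± 0.23, adjusted p = 0.143). Within silica Nkd1 rose by 0.75 ± 0.23 at day 14 against day 7 (adjusted p = 0.0151), which was lost without SiO2 day 7 replicate 3 (adjusted p = 0.0838) or SiO2 day 14 replicate 3 (0.146). The falls against untreated were lost without untreated replicate 2 at BLM day 7 (adjusted p = 0.126), BLM day 14 (0.0807) and SiO2 day 63 (0.0769). They were also lost at BLM day 7 without its replicate 1 (0.0631) or 2 (0.139), at BLM day 14 without its replicate 1 (0.0901) and at SiO2 day 63 without its replicate 1 (0.0758), so that SiO2 day 7 was the comparison with untreated in which Nkd1 kept its call in all 26 other settings.

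Nkd2, the paralogue of Nkd1, differed from it in direction. Its mean was highest late in the silica model, at 7.88, 12.8 and 10.7 CPM at SiO2 day 63. It stood at 4.98, 4.30 and 5.56 CPM at BLM day 63, against 4.66, 3.01 and 3.28 CPM in untreated. All 3 SiO2 day 63 libraries lay above the BLM day 63 and untreated ones. They overlapped with those of SiO2 day 14 (up to 7.99 CPM) and BLM day 14 (up to 8.01 CPM). Within silica the difference of day 63 from day 14 did not pass (0.67 ± 0.29, adjusted p = 0.224). Nkd2 rose by 1.49 ± 0.33 over untreated (adjusted p = 0.000583), and silica was higher than bleomycin by 1.06 ± 0.30 (adjusted p = 0.0111), which was lost without SiO2 day 63 replicate 2 (adjusted p = 0.0720). In the other 5 treated groups the means ran from 4.13 to 6.52 CPM, and the differences from untreated, from 0.16 to 0.82, did not pass (adjusted p from 0.0827 to 0.782).

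Lef1, a partner of beta-catenin on DNA and a target gene of the pathway, was at the limit of detection. It had 12, 3 and 0 counts at SiO2 day 7, 14 and 63 and 7, 2 and 0 counts at BLM day 7, 14 and 63, against 0 counts in untreated. All 3 libraries had counts at SiO2 day 7 (4, 2 and 6), and 2 of 3 had them at BLM day 7 (4, 0 and 3). Set against a floor of 3 counts over the untreated group, the ratio was 3.41 at SiO2 day 7 and 2.24 at BLM day 7. These ratios leave out the counting error of the treated counts, so they are not lower bounds. Without the filter on low counts Lef1 was higher at SiO2 day 7 (adjusted p = 0.0218), and BLM day 7 had an adjusted p of 0.0857. Lef1 is also abundant in T cells, which carry CD45 and were gated out in the sort. The lymphocyte markers, 8 of 11 of which were in the files, summed to 30.3 to 72.7 CPM at SiO2 day 7 and 33.6 to 56.3 CPM at BLM day 7, against 4.92 to 10.8 CPM in untreated, with the chemokine gene Ccl5 at 55.1 CPM of it at SiO2 day 7. The T cell genes Cd3e and Cd2 were at 0 in all libraries of every treated group, but not in all untreated libraries. Cd3g, another T cell gene, was at 0 in all libraries of SiO2 day 7 and untreated but not of BLM day 7 or SiO2 day 14. At SiO2 day 63, where Lef1 was at 0, the sum was 34.5 to 46.5 CPM. The sum of the 9 epithelial markers was 20.5 to 32.4 CPM at SiO2 day 7 and 27.7 to 31.3 CPM at BLM day 7. It was 8.54 to 11.7 CPM in untreated, 6.66 to 9.51 CPM at SiO2 day 14 and 4.70 to 8.12 CPM at BLM day 14. Of these markers 2 were tested, and both rose against untreated at day 7 of each model. The part of lymphocytes or epithelial cells in the Lef1 counts was not tested.

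**Figure D5:**
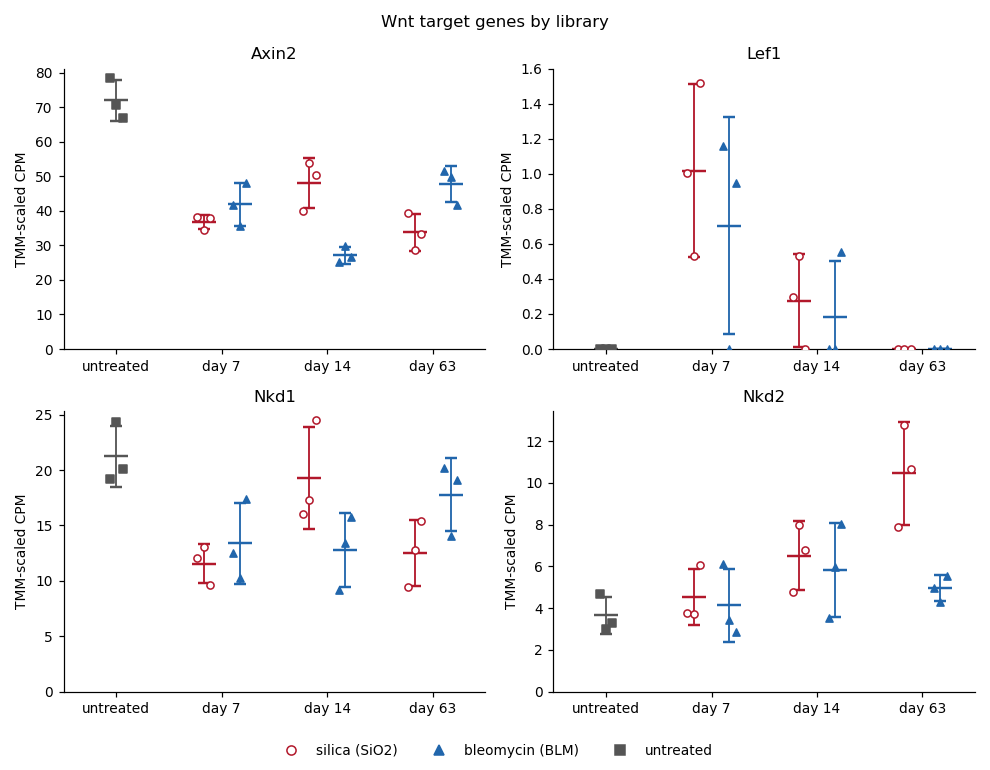
TMM-scaled CPM (vertical axis) of Axin2, Lef1, Nkd1 and Nkd2 in each library by time, with silica in red circles, bleomycin in blue triangles, untreated in grey squares, a line at the mean and bars of ± SD (n = 3). Axin2 lies below untreated in every treated library, Lef1 counts are concentrated at day 7, and Nkd2 has its highest mean at SiO2 day 63.

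Between silica and bleomycin at the same day, 1 of the 8 genes was higher and 1 lower at day 7 (Rspo3 and Rspo1; 5.29% and 5.10% of all genes), 2 were higher and 0 lower at day 14 (Rspo1 and Axin2; 9.06% and 8.03%), and 2 were higher and 1 lower at day 63 (Rspo3 and Nkd2, and Axin2; 9.13% and 6.44%). Over time within bleomycin, 1 rose and 1 fell at day 14 against day 7 (Rspo3 and Axin2; 5.20% and 4.82%), and 1 rose and 0 fell at day 63 against day 14 (Axin2; 15.4% and 16.9%). Within silica, 2 rose and 1 fell at day 14 against day 7 (Rspo1 and Nkd1, and Rspo3; 12.2% and 11.1%), and 1 rose and 2 fell at day 63 against day 14 (Rspo3, and Rspo1 and Axin2; 1.53% and 2.00%). All 3 calls of silica at day 63 against day 14 were lost without SiO2 day 14 replicate 3, and all 3 were lost without SiO2 day 63 replicate 2.

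Rspo1, Rspo3 and Axin2 followed different courses in the 2 models in both intervals, by a test of the interaction of model and time, the change in silica minus that in bleomycin. From day 7 to 14 the interaction was 3.16 ± 0.63 for Rspo1 (adjusted p = 0.000243) and 1.00 ± 0.21 for Axin2 (adjusted p = 0.000800), which makes 2 of 8 higher against 9.74% of all genes. It was -3.12 ± 0.34 for Rspo3 (adjusted p = 5.03e-08), 1 of 8 lower against 9.47%. From day 14 to 63 all 3 turned the other way, with 1.49 ± 0.33 for Rspo3 (adjusted p = 0.00143; 1 of 8 higher, against 9.70% of all genes) and -1.32 ± 0.21 for Axin2 (adjusted p = 2.03e-05) among 3 of 8 lower, against 8.81%. The others were Nkd1 at -1.09 ± 0.32 (adjusted p = 0.0156), lost without BLM day 14 replicate 1 (adjusted p = 0.0565), SiO2 day 14 replicate 3 (0.0754) or SiO2 day 63 replicate 1 (0.0521), and Rspo1 at -1.75 ± 0.64 (adjusted p = 0.0497), lost in 20 of 26 other settings (0.0506 to 0.155, the highest without BLM day 63 replicate 1). The day 14 groups enter both intervals with opposite signs, so the 2 interactions are not independent.

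Genes with a course like that of each member were sought by Pearson's r of log2 CPM over the 21 libraries, for members of at least 5 CPM and among genes of at least 10 CPM. For Rspo3 these were Prrx1 (r = 0.946), a homeobox factor of mesenchyme, Hif1a (0.928), the hypoxia-inducible factor, and the matrix glycoprotein gene Thbs2 (0.911). All 3 were, like Rspo3, highest at SiO2 day 7 and lowest in untreated libraries, and Thbs2 averaged 217 CPM at SiO2 day 7 and 5.94 CPM in untreated. Axin2 was followed by Ept1 (0.894), the transcription factor gene Nfic (0.892) and the potassium channel gene Kcna2 (0.890), all highest in untreated and lowest at BLM day 14, where Kcna2 averaged 2.5 CPM against 37.5 CPM in untreated. Wnt5a was closest to Mfrp (0.875), 1500009L16Rik (0.874) and C1qtnf5 (0.873). Mfrp and C1qtnf5 are known as overlapping genes, whose reads may not be separable. For Nkd1 they were Soga1 (0.855), Mafk (0.851) and Mcc (0.850), and for Nkd2 Serping1 (0.802), Cilp (0.766) and Atrnl1 (0.761), with Serping1, Cilp and Atrnl1 all highest at SiO2 day 63. The 21 points share groups and library scaling, so these r values are a description.

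Around these genes, 94 other gene symbols of the pathway were listed and 67 genes were tested. Among the symbols, Tiki2 and Ccn4 are second names of Trabd2b and Wisp1. Of the 67 tested, 20 rose and 20 fell at SiO2 day 7 (29.9% and 29.9%, against 23.4% and 20.6% of all tested genes), 19 and 9 at SiO2 day 14 (28.4% and 13.4%, against 13.6% and 10.5%), and 21 and 15 at SiO2 day 63 (31.3% and 22.4%, against 15.3% and 12.5%). In bleomycin 14 rose and 17 fell at day 7 (20.9% and 25.4%, against 16.7% and 14.9%), 25 and 18 at day 14 (37.3% and 26.9%, against 20.7% and 18.5%), and 9 and 8 at day 63 (13.4% and 11.9%, against 6.02% and 5.48%). The higher share at BLM day 7 lay near that of all genes. Their median log2 fold change lay between -0.08 and 0.21 in these 6 comparisons, and that of all tested genes between 0.01 and 0.04. Wnt6, Wls, Ror1, Ror2, Sfrp1, Frzb and Cd44 rose in all 6 comparisons, 7 genes in all, and Wnt2, Fzd3, Lrp5, Tcf7l1 and Tle2, 5 genes, fell in all 6. At BLM day 63 leaving out untreated replicate 1 alone ended the call of Wnt2 (adjusted p = 0.218), Wls (0.0569), Fzd3 (0.304), Tle2 (0.121) and Ror2 (0.111), and leaving out BLM day 63 replicate 3 ended those of Wnt2 (0.251), Fzd3 (0.310), Tle2 (0.162) and Ror2 (0.135). There Fzd3 lost its call in 15 of 26 other settings, Wnt2 and Wls also lost theirs without untreated replicate 2 (adjusted p = 0.147 and 0.0593), Ror2 without untreated replicate 3 (0.0893), and Wnt2 (0.0508), Tle2 (0.0613) and Ror2 (0.117) without BLM day 63 replicate 2. Fzd3 lost its call at BLM day 7 without untreated replicate 1 (adjusted p = 0.194) or BLM day 7 replicate 2 (0.0699) or 3 (0.0679), and at SiO2 day 14 without untreated replicate 1 (0.161) or SiO2 day 14 replicate 1 (0.103).

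Among the other ligands, 4 of 17 were tested, and the pair that moved most went opposite ways. Wnt6, a secreted Wnt ligand, stood at 43.9, 39.9 and 37.2 CPM at SiO2 day 7 and 32.2, 55.7 and 55.5 CPM at BLM day 7, against 6.73, 9.55 and 9.36 CPM in untreated. Treated and untreated libraries did not overlap, and the rises were 2.25 ± 0.24 (adjusted p = 1.96e-09) and 2.5 ± 0.24 (adjusted p = 8.11e-10). At day 63 Wnt6 averaged 42.3 ± 7.96 CPM in silica and 17.9 ± 2.60 CPM in bleomycin, and silica was higher by 1.25 ± 0.20 (adjusted p = 2.13e-05). Wnt2, a ligand of embryonic lung mesenchyme that is needed for lung formation, averaged 3.86 ± 1.59 CPM at SiO2 day 7 and 15.5 ± 1.58 CPM at BLM day 7, against 25.0 ± 6.76 CPM in untreated. It fell by 2.72 ± 0.29 in silica (adjusted p = 8.37e-10) and was lower there than in bleomycin by a log2 difference of -1.99 ± 0.30 (adjusted p = 6.54e-06). In bleomycin at day 7 it fell by 0.73 ± 0.22 (adjusted p = 0.0109), lost without untreated replicate 1 (adjusted p = 0.0873) or 2 (0.0553) or BLM day 7 replicate 2 (0.0600).

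Of 7 tested genes of Wnt secretion and processing, 3 rose and 2 fell at SiO2 day 7 (23.4% and 20.6% of all genes), and 3 rose and 3 fell at SiO2 day 63 (15.3% and 12.5%). Wls, the carrier that brings Wnt proteins to the cell surface, averaged 28.1 CPM at SiO2 day 7 and 22 CPM at BLM day 7, against 14.5 CPM in untreated (rises of 0.96 ± 0.15, adjusted p = 4.78e-06, and 0.61 ± 0.16, adjusted p = 0.00301). Trabd2b, a protease that inactivates Wnt, fell to 177 CPM at SiO2 day 7 and to 385 CPM at BLM day 7, against 557 CPM in untreated. The falls were 1.66 ± 0.13 (adjusted p = 1.26e-11) and 0.53 ± 0.13 (adjusted p = 0.00167), and silica was lower than bleomycin by a log2 difference of -1.12 ± 0.13 (adjusted p = 2.62e-07).

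Of 15 tested receptors, 4 rose and 6 fell at SiO2 day 7 (23.4% and 20.6% of all genes), and 3 rose and 6 fell at BLM day 7 (16.7% and 14.9%). The numbers that rose are near the shares of all genes. Ror1, a receptor of Wnt5a, rose in all 6 groups and averaged 45.5 ± 7.61 CPM at SiO2 day 7 and 39.9 ± 5.72 CPM at BLM day 7, against 13.3 ± 3.13 CPM in untreated, with log2 rises of 1.82 ± 0.19 (adjusted p = 1.12e-09) and 1.63 ± 0.19 (adjusted p = 3.68e-08). Lrp5, a co-receptor of the canonical branch, fell by 1.43 ± 0.12 (adjusted p = 2.65e-11) and 1.35 ± 0.12 (adjusted p = 3.38e-10) at SiO2 day 7 and BLM day 7. Its partner gene Lrp6 passed in 0 of the 6 comparisons with untreated, with 33.2 CPM at SiO2 day 7 against 32.0 CPM in untreated. Znrf3, the ligase that R-spondins block and a Wnt target, was at 26.3, 23.6 and 22.3 CPM at SiO2 day 7 and 30.8, 22.7 and 28.8 CPM at BLM day 7, against 67.3, 56.0 and 53.8 CPM in untreated, and fell by 1.30 ± 0.19 (adjusted p = 1.89e-06) and 1.12 ± 0.19 (adjusted p = 3.45e-05). The R-spondin receptor Lgr4 was measured in all groups, with 32.2 ± 1.22 CPM at SiO2 day 7 and 19.4 ± 3.59 CPM at BLM day 7, against 27.9 ± 3.64 CPM in untreated. Silica was higher than bleomycin at day 7 by 0.73 ± 0.17 (adjusted p = 0.00375). Lgr5 (10 to 31 counts per group) and Rnf43 (0 to 4 counts per group) did not pass the filter. Against untreated Lgr4 fell by 0.53 ± 0.18 at BLM day 7 (adjusted p = 0.0191), which was lost without untreated replicate 2 (adjusted p = 0.140) or BLM day 7 replicate 3 (0.123).

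Secreted antagonists gave some of the widest changes of the pathway. Sfrp1, a soluble Frizzled-like protein that binds Wnt, averaged 1158 ± 135 CPM at SiO2 day 7 and 1144 ± 306 CPM at BLM day 7, against 95.7 ± 13.0 CPM in untreated, with rises of 3.59 ± 0.17 (adjusted p = 1.28e-15) and 3.57 ± 0.17 (adjusted p = 7.29e-15). At day 63 it averaged 821 ± 69.8 CPM in silica and 313 ± 26.7 CPM in bleomycin, with a log2 difference of 1.39 ± 0.16 (adjusted p = 1.90e-07). Frzb, of the same family, had 196 counts at SiO2 day 7, 758 at SiO2 day 63, 289 at BLM day 7 and 875 at BLM day 14, against 2 counts in untreated, which gives ratios of 83.6 (95% counting interval 22.8 to 695), 314 (86.5 to 2600), 139 (38.1 to 1150) and 446 (123 to 3680). Of the 7 antagonists tested, 2 rose and 1 fell at day 7 of each model, which is near the shares of all genes (23.4% and 20.6% in silica, 16.7% and 14.9% in bleomycin). At day 63, 4 rose and 0 fell in either model (15.3% and 12.5% of all genes in silica, 6.02% and 5.48% in bleomycin).

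In the intracellular relay, 5 of 25 tested genes rose and 8 fell at SiO2 day 7 (23.4% and 20.6% of all genes), and 2 rose and 5 fell at BLM day 7 (16.7% and 14.9%). The numbers that rose are below the shares of all genes. Tcf7l1, a Tcf factor known as a repressor, fell in all 6 groups and averaged 142 CPM at SiO2 day 7, against 291 CPM in untreated (a fall of 1.04 ± 0.10, adjusted p = 3.16e-10). Tle2, a co-repressor of Tcf factors, also fell in all 6, by 0.94 ± 0.15 at SiO2 day 7 (adjusted p = 5.52e-06). Ctnnb1, which encodes beta-catenin, rose in 5 of the 6 comparisons with untreated. The rise was 0.84 ± 0.10 at SiO2 day 7 (adjusted p = 3.45e-08) and 0.61 ± 0.10 at SiO2 day 63 (adjusted p = 1.76e-05). Ctnnb1 averaged 1303 CPM at BLM day 7 and 1483 CPM at BLM day 14, against 930 CPM in untreated.

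Of 15 other Wnt targets tested, 5 rose and 4 fell at SiO2 day 7, and 4 rose and 4 fell at BLM day 7, while all genes also went both ways (23.4% and 20.6%, and 16.7% and 14.9%). Wisp1, a matricellular protein, averaged 14.5 ± 3.91 CPM at SiO2 day 7 and 11.1 ± 3.74 CPM at BLM day 7, against 1.92 ± 1.65 CPM in untreated, and rose by 3.13 ± 0.46 (adjusted p = 1.10e-07) and 2.74 ± 0.47 (adjusted p = 4.49e-06). Bambi and Tnfrsf19, both receptors of the cell surface, fell at SiO2 day 7 by 1.62 ± 0.14 (adjusted p = 1.80e-10) and 1.54 ± 0.12 (adjusted p = 1.26e-11). Each fell in 5 of the 6 comparisons with untreated, those at BLM day 7 and BLM day 14 among them. Sp5, a transcription factor gene named here after its values were seen, had 58 counts at SiO2 day 7 (16, 24 and 18) and 8 at BLM day 7 (4, 2 and 2), against 1 count in untreated. Its ratio to untreated was 49.5 at SiO2 day 7 (95% counting interval 8.53 to 1990), and silica was higher than bleomycin at day 7 by 2.64 ± 0.57 (adjusted p = 0.000339). Genes known as Wnt targets thus went both ways at day 7. The silica libraries held, among others, more Lef1, Sp5 and Wisp1 and less Axin2, Nkd1 and Znrf3 than the untreated ones. At BLM day 7 the levels of these genes differed from untreated in the same directions. There Lef1 (adjusted p = 0.0857 without the filter on low counts) and Sp5 did not pass. The part of other cell types in the Lef1 counts was not tested.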

How the data were processed

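The deposited files held raw counts of tags per gene symbol for each of 21 libraries, made by the authors with 3′ SAGE sequencing on an Ion Proton instrument per the labels, with Bowtie2 2.2.5 and mm10 per the submitters' processing notes. The counting tool, annotation, filters and strand setting are not given in the sources used here. Counts were fitted with edgeR 4.0.16 (R 4.3.3), with TMM scaling, filterByExpr by group (11669 genes kept, 11535 not), a factor of 7 groups and the quasi-likelihood test with Benjamini-Hochberg adjustment over all genes tested, and called at an adjusted p under 0.05. The interactions were contrasts of the same fit. Scripts were tested on simulated data. Alternatives were RLE and upper quartile scaling, no filter, DESeq2 1.42.0, a replicate block and each library left out, 26 settings.

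All 10 members were described. From each pathway list the text names genes among the up to 4 widest calls per comparison at 5 CPM or more, and those called in all 6 comparisons with untreated. Sp5, Lgr5 and Rnf43 stand outside that rule and were named after their values were seen. The members and lists were chosen with earlier results of these data known. For the genes most alike, log2 CPM had an offset of 0.5 CPM. Promoter sequences are from RefSeq. Library numbers 1 to 3 served only as names.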

Additional observations from a re-analysis of the deposited data

Results flagged for a closer look

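A difference between the 2 models in the change over time, tested as an interaction (silica change minus bleomycin change) in edgeR's quasi-likelihood fit, singled out 7 results. From day 7 to 14 it was 3.16 ± 0.63 (SE, log2 scale) for Rspo1 (adjusted p = 0.000243), -3.12 ± 0.34 for Rspo3 (adjusted p = 5.03e-08) and 1.00 ± 0.21 for Axin2 (adjusted p = 0.000800). From day 14 to 63 it was -1.75 ± 0.64 for Rspo1 (adjusted p = 0.0497), 1.49 ± 0.33 for Rspo3 (adjusted p = 0.00143), -1.32 ± 0.21 for Axin2 (adjusted p = 2.03e-05) and -1.09 ± 0.32 for Nkd1 (adjusted p = 0.0156). The Rspo1 call from day 14 to 63 was lost in 20 of 26 other settings (adjusted p from 0.0506 to 0.155), and that of Nkd1 in 3, without BLM day 14 replicate 1 (0.0565), SiO2 day 14 replicate 3 (0.0754) or SiO2 day 63 replicate 1 (0.0521). Mesothelial markers had interactions in the same direction as Rspo1, with 6 of 7 higher from day 7 to 14 and 2 of 7 lower from day 14 to 63, and their part was not tested.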

How the results depend on the processing

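Over 26 other settings, 3029 of the values of the 8 tested members kept their side of the threshold, 78 lost a call and 10 gained one. Of the values called in the main fit, 0 turned direction. For the pathway genes named, the counts were 7976, 337, 5 and 0. The direction of values that were not called was not checked. Without the filter on low counts the number of members called at BLM day 63 against day 14 was 2 instead of 1, through Rspo3 (adjusted p = 0.0150). In its relatively widest moves, leaving out single libraries shifted the number of members called from 3 to 5 at BLM day 14 against untreated, from 1 to 2 for SiO2 against BLM at day 7, from 1 to 2 at day 14 and from 1 to 3 at day 63. It moved the number from 1 to 2 at BLM day 14 against day 7, from 1 to 2 at BLM day 63 against day 14, from 0 to 3 at SiO2 day 63 against day 14, and from 2 to 4 for the interaction from day 14 to 63. Moves that were smaller relative to the number in the main fit occurred at BLM day 7, SiO2 day 14 and SiO2 day 63 against untreated. The same held at SiO2 day 14 against day 7, where the number ran from 2 to 4 beside 3 in the main fit. The replicate numbers did not pair the libraries: the median correlation of deviations was -0.00671 over 63 same-numbered pairs (-0.229 to 0.152) and -0.0041 over 126 others. With the replicate block 4 members were called at BLM day 14 against untreated instead of 5, 2 at SiO2 day 63 against day 14 instead of 3, and 3 for the interaction from day 14 to 63 instead of 4, and no other number changed. The calls lost were those of Rspo1 (adjusted p = 0.0590), Axin2 (0.0520) and Rspo1 (0.0601), and Fzd3 at BLM day 63 against untreated was lost too (0.0549). Scaling moved the median of all genes by at most -0.0805 on the log2 scale, with upper quartile scaling at SiO2 day 14 against untreated. Depth limits Rspo2 and Lef1, with at most 25 and 12 counts per group.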
